A study of Mus musculus with 30 samples.

Results

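The comparison described here set retinas of *E168d2neo/+* mice against retinas of *R90W/+* mice at postnatal day 10 (P10). It used 6 of the 30 RNA-seq libraries of the series, 3 for each genotype, and WT libraries of both ages and libraries of both genotypes at P21 were set beside them. Levels in *E168d2/+* at P10 are also given, and for the gene next to *Crx* those in *E168d2/d2* and *R90W/W* at P10, groups that keep no normal *Crx* allele. All mutants are knock-in mice, backcrossed to C57BL6/J, and the *E168d2neo/+*, *E168d2/+* and *R90W/+* mice keep 1 normal *Crx* allele. The *R90W* allele is a substitution in the homeodomain that reduces DNA binding. The *E168d2* allele is a frameshift that truncates CRX after the homeodomain, so that the mutant protein still binds DNA but does not activate transcription. The *E168d2neo* allele is the same truncation with a neomycin cassette left in an intron, and it makes less of the mutant protein than the *E168d2* allele. The study describes each library as RNA of 4 pooled retinas, taken from a male and a female mouse. The question was which transcripts separate mice with the truncated protein from mice with a CRX protein of weakened DNA binding. The age is one at which photoreceptors are building their outer segments.

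CRX is a homeodomain transcription factor of rods and cones. Together with NRL, the leucine zipper factor that sets rod identity, it turns on the genes of phototransduction, the cascade in which a light-activated opsin works through transducin and a phosphodiesterase to close a cyclic nucleotide-gated channel. Guanylate cyclases and the proteins that activate them restore cyclic GMP, and recoverin, opsin kinases and arrestins shut the cascade off. These proteins sit in the outer segment, a stack of membrane discs that grows from the tip of each photoreceptor during the first weeks after birth in mice.

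Values are CPM, the reads on a gene scaled to a common total of reads counted on genes in each library. They do not correct for gene length, so levels are compared between groups and not between genes. The 6 libraries held 16.6 to 24.2 M reads on genes. Of 12573 genes in the table, 11952 had at least 5 CPM in every library of 1 of the groups and were tested with limma on log2(CPM + 0.1). Rod and cone genes were abundant in every library, with 18794 to 21846 CPM over the 21 rod phototransduction genes in *R90W/+* and 12346 to 12905 CPM in *E168d2neo/+*. In the *R90W/+* group 2 libraries stood apart. Replicate C held 1311 CPM over a list of lens genes, against 40.4 to 81.2 CPM in the other 5 libraries. Replicate A held *Xist* at 2868 CPM and *Kdm5d*, a Y-linked gene, at 15.2 CPM, while the other 5 libraries held *Xist* at 1324 to 1857 CPM and *Kdm5d* at 31.7 to 35.0 CPM. It was also the lowest of its group for 36 of the 42 genes named below as lower in *E168d2neo/+*, so most differences were larger when it was left out. In the groups set beside them, WT P21 replicate A held *Xist* at 3.05 CPM, against 1503 and 1638 CPM in replicates B and C. *E168d2/d2* P10 replicate C held *Xist* at 2.96 CPM, and replicate B held *Kdm5d* at 0.0 CPM. These libraries do not show RNA of both sexes.

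At P10, 66 genes passed both a Benjamini-Hochberg false discovery rate (FDR) of 0.05 and a 2-fold limit, which is 0.552% of the genes tested, and these are called genes in the text. Of them 42 were lower in *E168d2neo/+* (0.351%) and 24 were higher (0.201%). The FDR alone was passed by 701 genes (5.87%), 356 lower and 345 higher, of which 500 differed by less than 1.5-fold. That wider count depended on single libraries, with 275 genes without *R90W/+* replicate C, 294 without *R90W/+* replicate B and 384 without *E168d2neo/+* replicate C. The middle of all genes hardly moved: the median log2 difference was 0.0213, and the middle 50% of genes lay between -0.08 and 0.11. Groups did not overlap for any of the 66 called genes, but this was so for 27.2% of all genes tested. Differences are given as log2 of *E168d2neo/+* over *R90W/+*, so that negative values are lower in *E168d2neo/+*, with the standard error (SE) and the Benjamini-Hochberg adjusted p from limma as FDR. On the log2(CPM + 0.1) scale the change of low genes is understated. The called genes nearest the fold limit were *Osbp2* at -1.01 and *Txnip* at 1.02, and the nearest genes past the FDR but inside the limit were *A930033H14Rik* at -0.99 and *Dnahc2* at 0.96. Without *R90W/+* replicate A, 92 genes were called, and these included all 66. Since whole retinas were measured, fewer cells of a type and less RNA per cell cannot be told apart in any of these values.

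**Figure D1:**
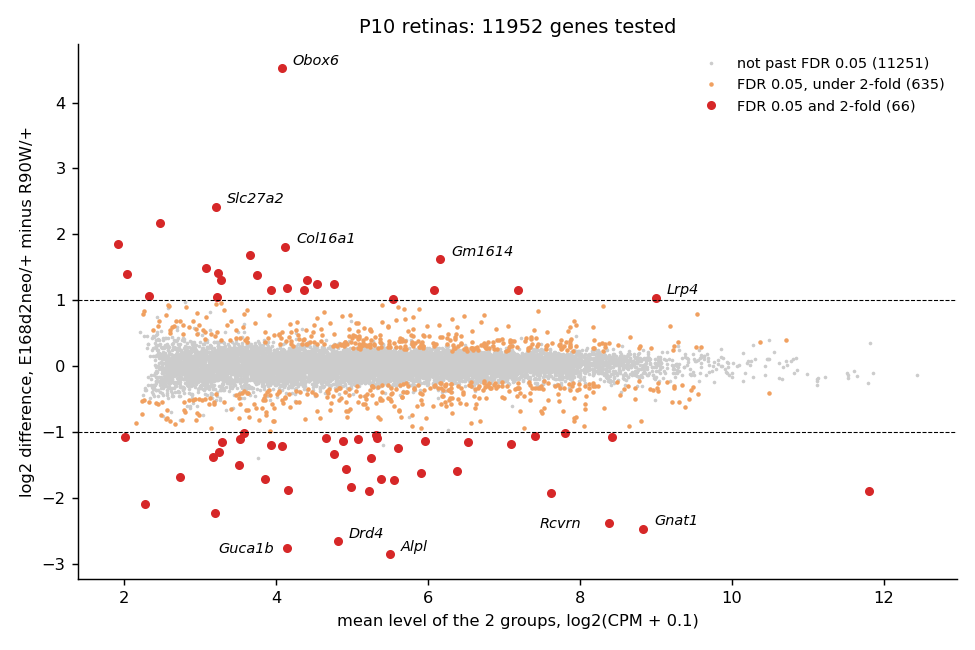
Log2 difference between E168d2neo/+ and R90W/+ at P10 (y axis) against the mean level of both groups as log2(CPM + 0.1) (x axis), 1 point for each of the 11952 genes tested. Grey points did not pass the FDR, orange points passed it with less than 2-fold, and the 66 red points passed both limits (dashed lines at a log2 difference of 1 and -1). *Obox6* at 4.52 stands alone at the top, and photoreceptor genes such as *Gnat1* and *Rcvrn* are among the more abundant falls.

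*Crx* itself did not differ detectably at P10. Its level was 1784, 1700 and 1667 CPM in *R90W/+* replicates A, B and C and 1846, 1820 and 1769 CPM in *E168d2neo/+*, a log2 difference of 0.08 ± 0.0711 (SE, FDR = 0.57). The 3 WT libraries held it at 1481 to 1601 CPM. The groups overlapped, since *E168d2neo/+* replicate C lay below *R90W/+* replicate A. Reads of the normal and the mutant allele are counted together here, so these values do not show the share of either. At P21 *Crx* was lower in *E168d2neo/+*, at 1128, 1070 and 1212 CPM against 1389, 1505 and 1342 CPM, a log2 difference of -0.31 ± 0.0663 (SE, FDR = 0.0472 with limma). The difference was -0.36 to -0.27 when any 1 library was left out. It then passed the FDR only without *R90W/+* replicate C (0.0232) and reached 0.224 at most, and it was -0.24 with quantile normalization (FDR = 0.208). Without the 3 libraries rich in lens RNA, described with the P21 results, it was -0.45, but only 1 *R90W/+* library was then left.

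The largest difference of the whole comparison was next to *Crx*. *Obox6*, a homeobox gene of the oocyte-specific family, lies 26.3 kb from *Crx* on chromosome 7 (mm9, 16418595 to 16425027, minus strand, with *Crx* at 16451296 to 16465317 on the same strand). It was at 2.09, 0.841 and 1.23 CPM in *R90W/+* and at 28.8, 33.2 and 34.4 CPM in *E168d2neo/+*, a 23.0-fold difference (log2 4.52 ± 0.23 SE, FDR = 1.74e-07). In WT it was at 0.564 to 0.642 CPM. The *E168d2/+* libraries, which carry the same truncation without the cassette, held it at 1.42, 0.694 and 1.01 CPM, and the *E168d2/d2* libraries at 1.85, 1.32 and 1.0 CPM. The *R90W/W* libraries held it at 3.67, 2.63 and 4.16 CPM, all above WT. Among the 6 groups at P10, only the 3 *E168d2neo/+* libraries were above 5 CPM. At P21 it was at 3.38, 3.54 and 9.98 CPM in *E168d2neo/+* and at 0.205, 0.8 and 0.801 CPM in *R90W/+*, below the level needed for a test there. Of 25 tested genes within 1 Mb of *Crx*, *Obox6* was the only one past the FDR, and the 23 genes other than *Crx* and *Obox6* had log2 differences between -0.03 and 0.27. Within 5 Mb, 5 of 83 genes passed the FDR, a share near the 5.87% of all genes tested. The 4 other than *Obox6* differed by less than 2-fold (among them *Lig1* 0.32, *Cabp5* -0.45 and *Ppm1n* -0.41).

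**Figure D2:**
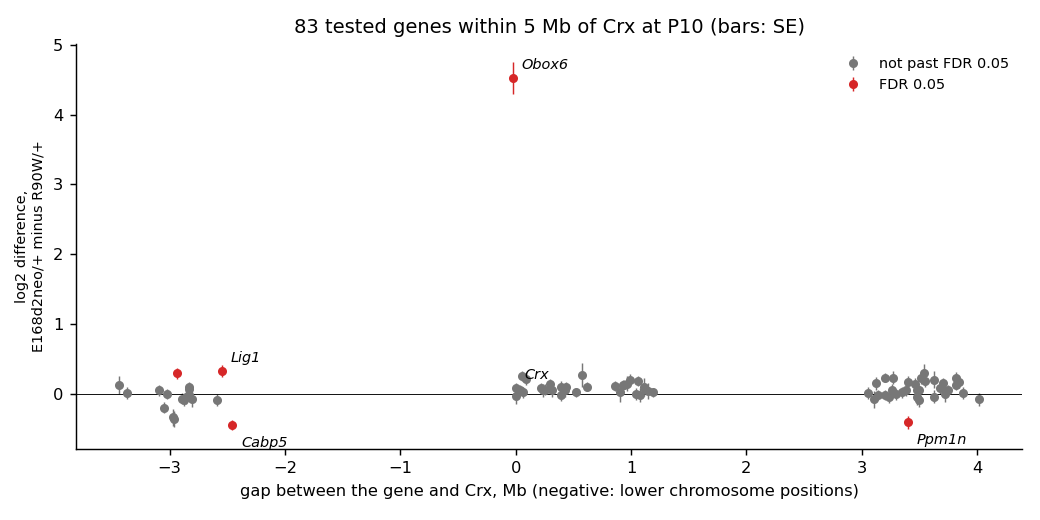
Log2 difference between E168d2neo/+ and R90W/+ at P10 (y axis, bars are SE) for 83 tested genes within 5 Mb of *Crx*, placed by their gap to *Crx* in Mb (x axis). *Obox6*, 26.3 kb away, stands at 4.52, and the 4 other genes past the FDR (red) lie between -0.45 and 0.32. Of all genes tested 5.87% passed the FDR.

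The rod phototransduction genes were lower in *E168d2neo/+* as a group. All 21 genes of the list were tested and had negative differences, 15 passed the FDR as lower (2.98% of all genes did) and 6 were called (0.351% of all genes). The median log2 difference of the list was -0.54, against 0.0213 over all genes. The size of the difference was very uneven along the cascade. *Gnat1*, the alpha subunit of rod transducin, was at 505, 963 and 861 CPM in *R90W/+* and at 113, 146 and 149 CPM in *E168d2neo/+*, 5.55-fold lower (log2 -2.47 ± 0.185 SE, FDR = 4.73e-06). Replicate A was the lowest of the 3 *R90W/+* libraries for this gene, and without it the difference was -2.75.

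Further called genes of the rod list act in calcium feedback and in the recovery of cyclic GMP. *Guca1b*, which encodes a guanylate cyclase activating protein, was at 17.3, 36.5 and 38.8 CPM in *R90W/+* and at 5.48, 3.68 and 3.67 CPM in *E168d2neo/+* (log2 -2.76 ± 0.252 SE, FDR = 1.81e-05). *Rcvrn*, the calcium sensor recoverin, was at 417, 637 and 623 CPM against 91.9, 109 and 116 CPM (log2 -2.38 ± 0.137 SE, FDR = 4.92e-07). *Slc24a1*, the exchanger that extrudes calcium from the rod outer segment, was at 239, 338 and 354 CPM against 73.5, 84.5 and 85.6 CPM (log2 -1.92 ± 0.122 SE, FDR = 1.21e-06). In each of these genes the 2 groups were clearly separated, with the *R90W/+* replicate A the lowest of its group. The cyclase *Gucy2f* was at 115, 130 and 135 CPM against 59.0, 50.5 and 62.1 CPM (log2 -1.15, FDR = 4.73e-06), and its partner *Gucy2e* differed by -0.79 (FDR = 4.25e-05).

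Other genes of the same cascade differed by less than 2-fold, and some of them did not pass the test. *Pde6a*, a catalytic subunit of the rod phosphodiesterase, was at 413, 587 and 573 CPM in *R90W/+* and at 253, 288 and 289 CPM in *E168d2neo/+* (log2 -0.91 ± 0.114 SE, FDR = 0.000311), and without *R90W/+* replicate A the difference of *Pde6a* was past 2-fold (-1.07, FDR = 6.34e-06). The other catalytic subunit, *Pde6b*, was at 1185, 1348 and 1398 CPM against 1134, 1222 and 1144 CPM, and the groups overlapped (log2 -0.17 ± 0.0789 SE, FDR = 0.255). The inhibitory subunit *Pde6g* differed by -0.62 (FDR = 0.00281). Of the channel genes, *Cngb1* differed by -0.65 (FDR = 1.9e-05) and *Cnga1* by -0.44 (FDR = 0.00281). *Grk1*, the opsin kinase, differed by -0.54 (FDR = 0.00311). *Guca1a*, the other cyclase activator of the list, did not pass the test (-0.43, FDR = 0.108), and neither did *Gnb1*, *Rgs9* and *Pdc*, whose differences lay between -0.18 and -0.10.

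**Figure D3:**
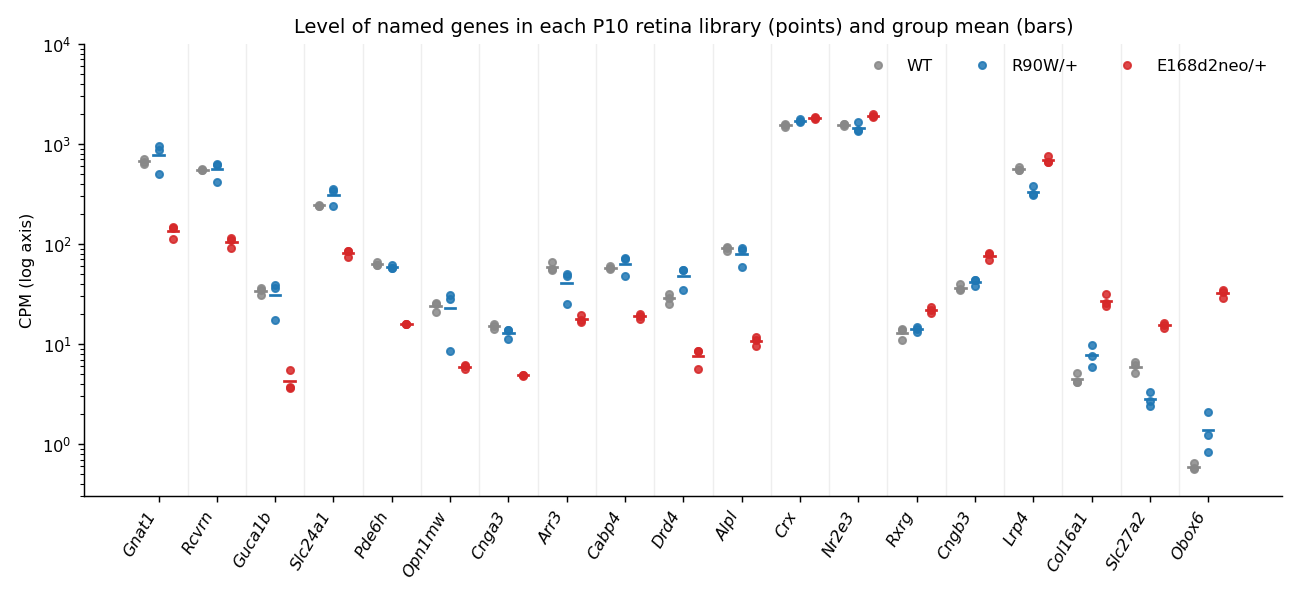
CPM (log axis) of 19 named genes in each P10 library of WT, R90W/+ and E168d2neo/+ (points, 3 libraries a group) with the group means (bars). From *Gnat1* to *Alpl* every E168d2neo/+ point lies below every R90W/+ and WT point, and the *Crx* points lie close together in all 3 groups. The E168d2neo/+ points of *Nr2e3* lie slightly above those of R90W/+, and from *Rxrg* to *Obox6* the E168d2neo/+ points are highest.

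The cone phototransduction genes did not all move the same way. Of 11 genes tested, 7 were lower and 1 was higher past the FDR (2.98% and 2.89% of all genes were). Of the lower genes 4 were called (0.351% of all genes). The median log2 difference of the list was -0.78. *Pde6h*, the inhibitory subunit of the cone phosphodiesterase, was at 57.5, 57.0 and 62.2 CPM in *R90W/+* and at 15.8, 15.8 and 15.7 CPM in *E168d2neo/+*. This was the smallest FDR of the whole comparison (log2 -1.89 ± 0.0743 SE, FDR = 3.46e-08). *Cnga3*, the alpha subunit of the cone channel, was at 11.2, 13.8 and 13.7 CPM against 4.89, 4.87 and 4.79 CPM (log2 -1.38 ± 0.117 SE, FDR = 9.91e-06). *Cngb3*, the beta subunit of the same channel, went the other way, at 37.7, 43.8 and 43.2 CPM in *R90W/+* and at 80.9, 68.6 and 78.8 CPM in *E168d2neo/+* (log2 0.87 ± 0.0845 SE, FDR = 3.29e-05). The cone transducin gene *Gnat2* differed by -0.78 (FDR = 6.32e-05) and the cone phosphodiesterase gene *Pde6c* by -0.58 (FDR = 0.00302).

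The cone opsin and arrestin genes differed in how close together the *R90W/+* libraries lay. *Opn1sw*, the short wavelength opsin, was at 122, 118 and 126 CPM in *R90W/+* and at 70.3, 69.9 and 61.7 CPM in *E168d2neo/+*, with all libraries of a group close together (log2 -0.86 ± 0.0693 SE, FDR = 7.9e-06). *Opn1mw*, the middle wavelength opsin, was at 8.51, 31.2 and 28.5 CPM against 5.62, 6.01 and 6.19 CPM (log2 -1.71 ± 0.35 SE, FDR = 0.0118). *Arr3*, cone arrestin, was at 25.4, 47.6 and 49.7 CPM against 19.3, 16.7 and 17.5 CPM (log2 -1.14 ± 0.193 SE, FDR = 0.00352). For *Opn1mw* and *Arr3*, both on the X chromosome, the *R90W/+* replicate A lay much nearer to *E168d2neo/+* than the other libraries did, and without it the differences were -2.31 for *Opn1mw* and -1.45 for *Arr3*. When *R90W/+* replicate B was left out instead, *Opn1mw* was at -1.38 and no longer passed (FDR = 0.0721), and when replicate C was left out it was at -1.44 (FDR = 0.0637). *Arr3* then fell just under the fold limit, at -0.99 and -0.96. That replicate A also had the high *Xist* and low *Kdm5d* values was measured, and the part of this in the *Opn1mw* and *Arr3* values was not tested.

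Part of the outer segment, visual cycle and synapse genes were lower in *E168d2neo/+*. Of 28 outer segment and disc genes tested, 13 were lower and 1 was higher past the FDR (2.98% and 2.89% of all genes were). The list median was -0.26, and 2 were called lower (0.351% of all genes). The called genes were *Fscn2*, an actin-bundling protein of photoreceptors, at 14.2, 16.8 and 19.5 CPM against 5.44, 6.42 and 5.69 CPM (log2 -1.5, FDR = 9.91e-06), and *Aipl1*, the chaperone needed for the rod phosphodiesterase, at 393, 484 and 526 CPM against 207, 240 and 212 CPM (log2 -1.08, FDR = 1.63e-05), which was at -0.99 without *R90W/+* replicate C. *Nxnl1*, the gene of a rod-derived cone viability factor, differed by -0.84 (FDR = 6.78e-05) and *Fam161a*, a ciliary gene, by -0.71 (FDR = 1.59e-05). The disc rim gene *Prph2* differed by -0.41 (FDR = 0.00417), whereas its partner *Rom1* was listed at a log2 difference of 0.00 with an FDR of 0.996. Of 22 genes of the cilium and its transport, 5 were lower past the FDR and none was called, with *Cep164* at -0.57 (FDR = 0.000545) and *Bbs4* at -0.43 (FDR = 0.000855).

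Among 7 visual cycle genes, the pathway that regenerates the chromophore of the opsins, 3 were lower past the FDR (2.98% of all genes were). *Rdh12*, a photoreceptor retinol dehydrogenase, was at 208, 240 and 240 CPM in *R90W/+* and at 107, 112 and 111 CPM in *E168d2neo/+* (log2 -1.06 ± 0.0693 SE, FDR = 1.58e-06). *Rdh8*, which acts on the same substrate in the outer segment, differed by -0.66 (FDR = 0.00197), and *Abca4*, the retinoid transporter of the disc rim, by -0.33 (FDR = 0.035). *Rbp3*, the retinoid carrier of the space around the outer segments, had a value of -0.25 that did not pass (FDR = 0.0995). Of 19 synapse genes, 10 were lower past the FDR and *Cabp4* was called. *Cabp4*, a calcium-binding protein that tunes the photoreceptor calcium channel, was at 48.4, 72.8 and 70.1 CPM against 17.9, 20 and 19 CPM (log2 -1.72 ± 0.129 SE, FDR = 4.73e-06). *Lrit1* differed by -0.78 (FDR = 1.6e-05) and *Cplx4*, a complexin of ribbon synapses, by -0.68 (FDR = 0.000163), while *Cacna1f*, the channel itself, differed by -0.33 (FDR = 0.0383).

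**Figure D4:**
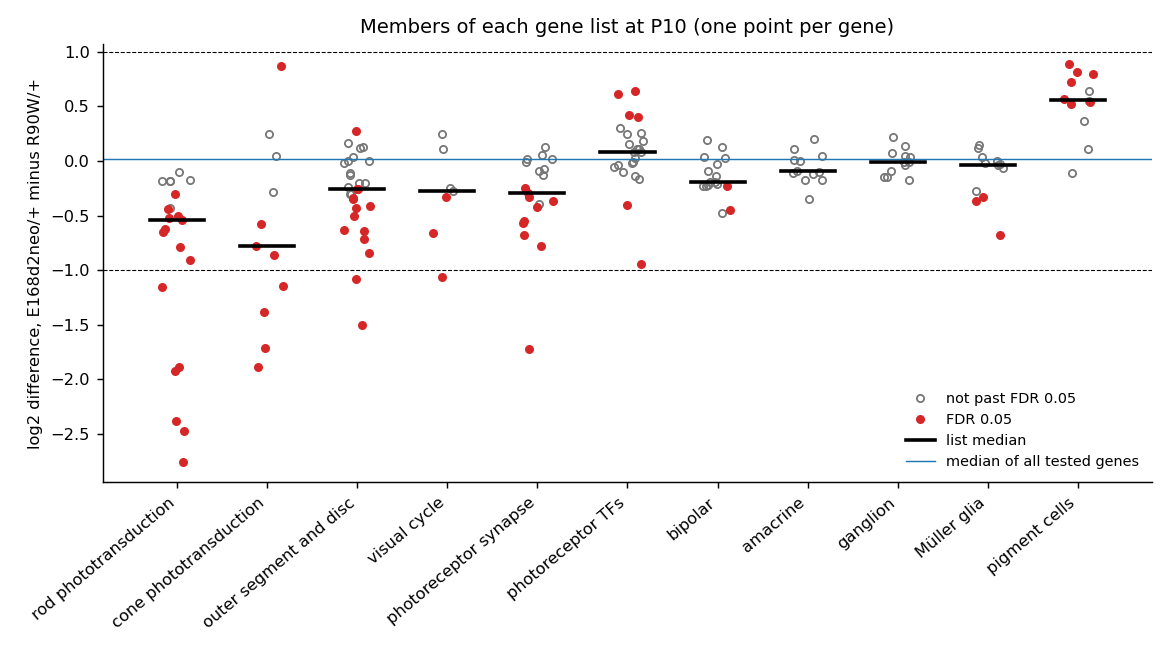
Log2 difference between E168d2neo/+ and R90W/+ at P10 (y axis) for each tested member (points) of 11 gene lists (x axis), filled red where the FDR was 0.05 or less. Black bars are list medians, at -0.54 for rod and -0.78 for cone phototransduction, 0.08 for photoreceptor transcription factors and 0.56 for pigment cell genes, and the blue line is the median of all genes tested.

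The transcription factors of photoreceptors were not lower as a group. Of 23 tested, 2 were lower and 4 were higher past the FDR (2.98% and 2.89% of all genes were). None was called, and the list median was 0.08. *Nrl* was at 1152, 1119 and 1194 CPM in *R90W/+* and at 1160, 1297 and 1208 CPM in *E168d2neo/+*, which overlap (log2 0.08 ± 0.0713 SE, FDR = 0.562). *Nr2e3*, the nuclear receptor that represses cone genes in rods, was at 1644, 1350 and 1378 CPM against 1895, 1976 and 1863 CPM (log2 0.40, FDR = 0.0164). *Samd7*, a rod repressor, was higher by 0.61 (FDR = 0.000347), *Prdm1*, which holds back bipolar genes, by 0.42 (FDR = 0.00321), and *Rxrg*, a nuclear receptor of cones, by 0.64 (FDR = 0.000742). The genes that were lower were *Esrrb*, an orphan receptor of rods, at 69.8, 88.1 and 79.3 CPM against 40.1, 40.1 and 42.7 CPM (log2 -0.94, FDR = 1.63e-05), and *Thrb*, the thyroid hormone receptor of cones, at -0.40 (FDR = 0.00172).

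Outside these lists, several of the largest falls were genes of signalling and metabolism. *Alpl*, tissue-nonspecific alkaline phosphatase, had the most negative difference of all, at 58.9, 91.9 and 86.9 CPM in *R90W/+* and at 9.46, 11.7 and 10.9 CPM in *E168d2neo/+* (log2 -2.86 ± 0.143 SE, FDR = 1.71e-07). *Drd4*, the dopamine receptor of photoreceptors, was at 34.7, 55.1 and 55.4 CPM against 5.62, 8.49 and 8.50 CPM (log2 -2.66 ± 0.185 SE, FDR = 2.81e-06). In WT *Drd4* was at 25.3 to 31.9 CPM, so that all 3 *R90W/+* libraries were above WT and all 3 *E168d2neo/+* libraries below it. *Kcnj14*, an inward rectifier potassium channel, was at 8.24, 18.5 and 18.7 CPM against 2.42, 3.16 and 3.34 CPM (log2 -2.23, FDR = 0.000149). *Tnfrsf8*, a receptor of the tumour necrosis factor family, was at 8.57, 7.93 and 6.71 CPM against 1.42, 2.07 and 1.73 CPM (log2 -2.10, FDR = 6.46e-06). Unlike most of the others it was already below WT in *R90W/+*, since WT held 12.6 to 14.4 CPM. Further called genes were *Susd3* (-1.84), *Vtn*, which encodes vitronectin (-1.73), *Jag1*, a Notch ligand (-1.39), *Tnfaip3*, an inhibitor of NF-kappaB signalling (-1.11), *Rtbdn*, which encodes retbindin (-1.18), and *Osbp2*, which was at -0.95 without *R90W/+* replicate B. *Glp2r* (-1.62), whose exons overlap *Gas7* on the other strand, was at 127, 74.0 and 71.6 CPM in *R90W/+*, and with *Tnfrsf8* and *Kcne2* it was 1 of 3 lower genes for which replicate A was the highest of its group. *Hspa1b* (-1.08) shares sequence with its near-identical copy *Hspa1a*, so its value is uncertain, and it was at -0.99 without *E168d2neo/+* replicate B.

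The promoters of called genes are shown here because CRX acts through short homeodomain sites near the starts of photoreceptor genes. The RefSeq promoter table (GRCm38.p6) held 27 of the 42 lower genes and 12 of the 24 higher genes. The 250 bases before each start were searched on both strands for TAATC, the core of the CRX type of site. It was found in 14 of 27 lower genes, 2 of 12 higher genes and 16.5% of all 8498 tested genes with a promoter. The longer string TAATCC, which holds TAATC, was found in 7, 2 and 6.52%. TGCTGA, part of the site of NRL, was found in 8, 0 and 15%. TAATTA, a general homeodomain core, was found in 1, 4 and 3.04%. The last of the 6 strings searched were TGACC, found in 12, 4 and 37.1%, and CACGTG, found in 4, 1 and 10.2%. These counts describe letters and not binding, and the strings and genes were chosen with the values known. Printed here are 6 lower genes with TAATC, or GATTA on the other strand, in capitals, each ending at the base before the start. By exact match, on mm9, they lie at chr4:137322391-137322640 (*Alpl*, minus strand, the start with matches of 2 in the table), chr11:71851012-71851261 (*Aipl1*, minus), chr8:87470640-87470889 (*Rtbdn*, plus), chrX:138631480-138631729 (*Gucy2f*, minus), chr12:80309650-80309899 (*Rdh12*, plus) and chrX:97800586-97800835 (*Arr3*, plus).
Alpl: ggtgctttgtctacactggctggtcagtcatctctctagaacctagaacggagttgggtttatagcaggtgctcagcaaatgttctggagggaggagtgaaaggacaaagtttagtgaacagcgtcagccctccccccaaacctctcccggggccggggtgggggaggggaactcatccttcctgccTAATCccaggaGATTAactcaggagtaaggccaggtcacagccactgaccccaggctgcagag
Aipl1: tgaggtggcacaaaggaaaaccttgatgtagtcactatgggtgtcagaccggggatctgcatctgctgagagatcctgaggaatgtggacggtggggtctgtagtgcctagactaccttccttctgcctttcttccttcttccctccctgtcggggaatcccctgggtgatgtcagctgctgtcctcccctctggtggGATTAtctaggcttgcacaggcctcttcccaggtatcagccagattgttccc
Rtbdn: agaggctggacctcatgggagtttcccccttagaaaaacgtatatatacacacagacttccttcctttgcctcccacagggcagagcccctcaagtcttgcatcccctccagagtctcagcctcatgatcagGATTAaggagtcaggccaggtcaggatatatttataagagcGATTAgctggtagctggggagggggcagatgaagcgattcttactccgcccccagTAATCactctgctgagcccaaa
Gucy2f: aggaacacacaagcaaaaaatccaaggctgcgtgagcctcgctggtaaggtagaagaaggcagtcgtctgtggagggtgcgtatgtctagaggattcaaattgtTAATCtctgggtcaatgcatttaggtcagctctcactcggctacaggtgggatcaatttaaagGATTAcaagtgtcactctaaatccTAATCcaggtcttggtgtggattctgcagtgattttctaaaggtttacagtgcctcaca
Rdh12: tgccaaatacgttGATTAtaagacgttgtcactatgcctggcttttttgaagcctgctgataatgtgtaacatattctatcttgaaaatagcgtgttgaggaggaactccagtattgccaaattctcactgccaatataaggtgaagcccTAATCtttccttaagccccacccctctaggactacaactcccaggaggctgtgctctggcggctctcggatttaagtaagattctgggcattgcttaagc
Arr3: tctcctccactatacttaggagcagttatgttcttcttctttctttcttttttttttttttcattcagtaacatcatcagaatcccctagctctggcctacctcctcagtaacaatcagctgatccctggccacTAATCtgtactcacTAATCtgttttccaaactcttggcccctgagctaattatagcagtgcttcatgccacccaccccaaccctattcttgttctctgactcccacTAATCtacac

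In *Alpl* the matches began at positions -63 and -52 and in *Aipl1* at -52, counted from the start with the base before it as -1. *Rtbdn*, *Gucy2f* and *Arr3* held 3 matches each, and the *Arr3* match nearest to the start was at -10. *Rdh12* held matches at -237 and -100. For contrast, the same 250 bases of 2 genes that were higher in *E168d2neo/+*, at chr2:126378510-126378759 (*Slc27a2*, plus) and chr4:129724834-129725083 (*Col16a1*, plus), held no match, which says only that these letters are not in this window.
Slc27a2: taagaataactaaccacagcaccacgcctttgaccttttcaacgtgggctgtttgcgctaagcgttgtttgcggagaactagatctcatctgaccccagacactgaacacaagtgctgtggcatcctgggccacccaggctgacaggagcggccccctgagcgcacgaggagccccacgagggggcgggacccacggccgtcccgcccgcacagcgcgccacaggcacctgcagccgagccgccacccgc
Col16a1: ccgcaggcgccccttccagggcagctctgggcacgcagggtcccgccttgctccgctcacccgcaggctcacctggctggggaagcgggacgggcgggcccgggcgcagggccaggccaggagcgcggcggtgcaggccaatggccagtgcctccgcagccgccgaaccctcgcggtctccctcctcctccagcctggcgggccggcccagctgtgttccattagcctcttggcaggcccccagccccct

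The genes that were higher in *E168d2neo/+* were mostly of low abundance, with a median level of 22.7 CPM against 7.48 CPM in *R90W/+*. *Slc27a2*, a fatty acid transporter and very long chain acyl-CoA synthetase, was at 3.35, 2.40 and 2.71 CPM in *R90W/+* and at 15.4, 16.4 and 14.5 CPM in *E168d2neo/+* (log2 2.42 ± 0.135 SE, FDR = 3.79e-07). WT lay between them, at 5.14 to 6.54 CPM. The exons of *Slc27a2* overlap *Gm16762* on the other strand. *Lrp4*, a receptor of the LDL receptor family and the most abundant of the called rises, was at 377, 312 and 314 CPM against 655, 752 and 656 CPM (log2 1.04 ± 0.0852 SE, FDR = 8.22e-06, and 0.98 without *E168d2neo/+* replicate B), and WT at 547 to 584 CPM lay between the groups again. *Gm1614* was at 36.6, 37.2 and 31.0 CPM against 104, 125 and 94.0 CPM, with WT at 47.9 to 59.6 CPM (log2 1.62, FDR = 1.21e-06). *2010001M09Rik* was at 1.76, 1.80 and 2.17 CPM against 9.18, 9.37 and 8.29 CPM (log2 2.17, FDR = 1.21e-06). It ends at 35809021 on chromosome 18 and *Gm1614* starts at 35811821, both on the minus strand. Whether they are separate transcripts was not tested. In all 4 genes the WT libraries lay above every *R90W/+* library and below every *E168d2neo/+* library.

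In the other rises too, every *E168d2neo/+* library was above every *R90W/+* and WT library. *Col16a1*, a fibril-associated collagen, was at 9.67, 5.83 and 7.60 CPM in *R90W/+*, at 25.5, 31.3 and 23.9 CPM in *E168d2neo/+* and at 4.17 to 5.08 CPM in WT (log2 1.81 ± 0.159 SE, FDR = 1.43e-05). *Flot2*, a membrane raft protein, was at 102, 87.3 and 81.8 CPM against 182, 220 and 200 CPM (log2 1.15 ± 0.0888 SE, FDR = 5.99e-06). *Irf5*, an interferon regulatory factor, was at 5.11, 4.32 and 3.65 CPM against 12.8, 12.6 and 11.6 CPM (log2 1.49, FDR = 1.57e-05), and its exons overlap *Tnpo3* on the other strand. *Atp13a4*, a cation transporting ATPase, was at 2.20, 0.961 and 1.63 CPM against 5.12, 5.64 and 6.56 CPM (log2 1.86, FDR = 0.000358). *Fbxl21* (1.42), a ubiquitin ligase subunit of the circadian clock, *Gm11545* (1.40), *Rgnef* (1.25) and *Rab3il1* (1.16) were also called. For *Fbxl21* and *Gm11545* WT again lay between the groups, at 6.47 to 8.02 CPM and at 2.88 to 4.20 CPM. *Txnip*, an inhibitor of thioredoxin, was at 46.2, 24.3 and 24.3 CPM against 66.6, 58.3 and 58.5 CPM (log2 1.02, FDR = 0.00658), with *R90W/+* replicate A again apart, and the value was 1.32 without it but 0.86 without *R90W/+* replicate B or C. The exons of *Txnip* overlap *Gm15441* on the other strand. *Dynlt1b* (1.68) and *Tmem181b-ps* (1.15) belong to families with near-identical copies and *Gm20546* (1.38) overlaps other genes, so reads may be shared and these values are uncertain.

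None of the markers of other retinal neurons and of Müller glia was called. Of the markers tested, 2 of 16 for bipolar cells, 0 of 12 for amacrine cells, 1 of 6 for horizontal cells and 0 of 12 for ganglion cells were lower past the FDR (2.98% of all genes were) and none was higher. The list medians were -0.19 for bipolar, -0.10 for amacrine, -0.01 for horizontal and -0.01 for ganglion cells. An unadjusted p below 0.05 in limma was found for 10 of the bipolar and 1 of the horizontal genes. Over all 11952 genes tested it was found for 2505. For amacrine and ganglion cells, where the count was 0 in limma, 4 and 1 genes had an unadjusted p below 0.05, and single genes ranged from -0.35 to 0.20 and from -0.17 to 0.22. Of 12 genes of Müller glia 3 were lower and 4 had an unadjusted p below 0.05, with *Aqp4*, the water channel, at 31.6, 41.4 and 38.3 CPM against 23.3, 19.9 and 26.0 CPM (log2 -0.68, FDR = 0.00327), and *Glul*, glutamine synthetase, at -0.37 (FDR = 0.0242). Both were above WT in *R90W/+*, since WT held *Aqp4* at 13.7 to 19.3 CPM. On a separate list that the study names for ganglion cells, 3 of 9 tested genes were higher past the FDR (2.89% of all genes were), and the list median was 0.15. Among them were *Rgr* (0.82, FDR = 0.00433) and *Ttr* (0.72, FDR = 0.0036), both known from pigment cells. Markers of vessels (0 of 13), microglia (0 of 7) and blood (0 of 5) did not pass limma's FDR in either direction, with 2, 3 and 2 genes at an unadjusted p below 0.05. The same held for the core clock genes (0 of 16) and the mitochondrial transcripts (0 of 12), with 2 genes each at an unadjusted p below 0.05.

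Pigment cell genes were higher in *E168d2neo/+*. These genes mark the pigment epithelium, which lies against the photoreceptors and can come along with a dissected retina. Of 12 tested, 7 were higher past the FDR and none was lower (2.89% of all genes were higher), and the list median was 0.56. The whole list summed to 278 to 345 CPM in WT, 349 to 447 CPM in *R90W/+* and 485 to 547 CPM in *E168d2neo/+*, and the ranges of the groups did not overlap. *Rgr* was at 23.9, 15.5 and 15 CPM against 30.7, 30.9 and 32.1 CPM (log2 0.82, FDR = 0.00433), *Rpe65*, the isomerase of the pigment epithelium, at 6.48, 5.65 and 4.49 CPM against 10.4, 7.51 and 11.3 CPM (log2 0.80, FDR = 0.0141), and *Pmel* at 45.0, 24.4 and 34.4 CPM against 55.2, 73.2 and 59.7 CPM (log2 0.89, FDR = 0.00843). The part of this in the other rises was not tested. Immediate early genes were split: *Jun* (0.53, FDR = 0.000261), *Jund* (0.46, FDR = 0.00541) and *Btg2* (0.31, FDR = 0.0109) were higher and *Ier3* was called lower, at 15.4, 16 and 16.3 CPM against 7.49, 7.51 and 8.34 CPM (log2 -1.02, FDR = 2.77e-05), a difference that sat at the fold limit.

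Rod-enriched and cone-enriched genes were taken as lists from another data set. Of 233 tested genes that the study lists as rod-enriched from published WT and *Nrl-/-* retinas, 84 were lower and 15 higher past the FDR, 21 were called lower and 3 higher, and the median was -0.18. Of all genes tested, 2.98% were lower and 2.89% higher past the FDR, and 0.351% and 0.201% were called. The called rises were *Lrp4*, *5430407P10Rik* and *Rab3il1*. Of 374 cone-enriched genes, 29 were lower and 60 higher, 5 were called lower and 2 higher, and the median was 0.06. The cone-enriched genes called higher were *Klhl33* and *Tmem158*, the latter at 0.94 without *E168d2neo/+* replicate B, while the 5 called lower were *Cnga3*, *Pde6h*, *Opn1mw*, *Arr3* and *Kcne2*, a potassium channel subunit. The cone-enriched list also holds *Rgr*, *Rpe65* and *Ttr*, genes of pigment cells, among its rises.

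Genes that change with age in WT retinas also separated the genotypes. The list was drawn on WT libraries only, with 5 CPM in every library of the higher age, a mean at least 2-fold higher and no overlap. Of the 588 genes higher at P21 than at P10 in WT, 405 were tested here, and 102 were lower and 11 higher in *E168d2neo/+* past the FDR, 25 were called lower and 0 higher, and the median was -0.20. Of the 492 genes lower at P21 in WT, 469 were tested, 4 were lower and 103 higher, 0 were called lower and 9 higher, and the median was 0.17. Over all genes tested, 2.98% were lower and 2.89% higher past the FDR, and 0.351% and 0.201% were called. The genes higher at P21 in WT summed to 28261, 32661 and 32747 CPM in *R90W/+* at P10 and to 20631, 21550 and 21529 CPM in *E168d2neo/+*, with WT at 27045 to 27731 CPM. All 3 *R90W/+* libraries were thus above all WT libraries and all *E168d2neo/+* libraries below them, and *R90W/+* replicate A was the nearest to WT.

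By their median the 42 lower genes were near the WT level in *R90W/+*, although single genes lay below or above it. Over these genes the median log2 difference from WT was -0.01 in *R90W/+*, from -0.83 to 0.72, and -1.60 in *E168d2neo/+*, from -3.08 to -0.75. These values were not tested, they share the WT libraries, and the genes were chosen for the gap between the mutants. The median level was 53.1 CPM in WT, 48.8 CPM in *R90W/+*, 15.9 CPM in *E168d2neo/+* and 10.4 CPM in *E168d2/+*, the allele without the cassette, whose libraries did not choose the genes. The *R90W/+* and *E168d2neo/+* libraries did choose them, so comparisons of *E168d2/+* with either describe these members only. The mean of *E168d2/+* was below that of *E168d2neo/+* in 34 of the 42 genes and above it in 8. *Pde6h* was at 2.34 ± 0.64 CPM (SD, n = 3) in *E168d2/+*, far below the 15.7 to 15.8 CPM of *E168d2neo/+*, whereas *Gnat1* at 240, 191 and 73.5 CPM and *Slc24a1* at 80.3 ± 30.2 CPM overlapped the *E168d2neo/+* libraries. For the 24 higher genes the mean of *E168d2/+* was above that of *E168d2neo/+* in 15 and below it in 9. In *Obox6*, *Tmem181b-ps* and *Txnip* the *E168d2/+* libraries overlapped those of *R90W/+*.

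At P21 the same genotypes were compared in other mice. At that age 25 of 11859 genes were called (0.211%), 15 lower (0.126%) and 10 higher (0.0843%), and 272 passed the FDR alone (2.29%), 133 lower (1.12%) and 139 higher (1.17%). The count at the FDR alone was 102 to 362 when 1 library was left out, lowest without *E168d2neo/+* replicate B and highest without *R90W/+* replicate C. Without the 3 libraries rich in lens RNA only 1 *R90W/+* library was left, so no count of that fit is set beside these. Of the 42 lower genes 41 were tested at P21, where 39 still had a negative difference, 23 passed the FDR in the same direction and 3 were called, and their median was -1.39 at P10 and -0.43 at P21. Of the 24 higher genes 12 were tested, 10 had a positive difference, 3 passed the FDR and 2 were called. These genes were chosen for their gap at P10, which by itself favours a smaller gap at P21, so the medians and counts describe the members only. The genes called at P21 include some that ran the other way, such as *Dnahc9*, at 0.26 at P10 and 1.71 at P21. A test of the change between ages, an interaction term in limma, was passed by 153 of 12304 genes (1.24%), of which 108 (0.878%) had a more positive difference at P21 and 45 (0.366%) a more negative one, among them 28 of the 42 lower and 6 of the 24 higher genes, each of them with the change toward 0. The count over all genes was 77 to 97 without any 1 of *E168d2neo/+* P10 C, *R90W/+* P10 B or C, and *E168d2neo/+* P21 A or B, and 322 without *R90W/+* P10 A. Across 11507 genes tested at both ages the log2 differences had a Pearson r of 0.336, given as a description across genes, which are not independent replicates.

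**Figure D5:**
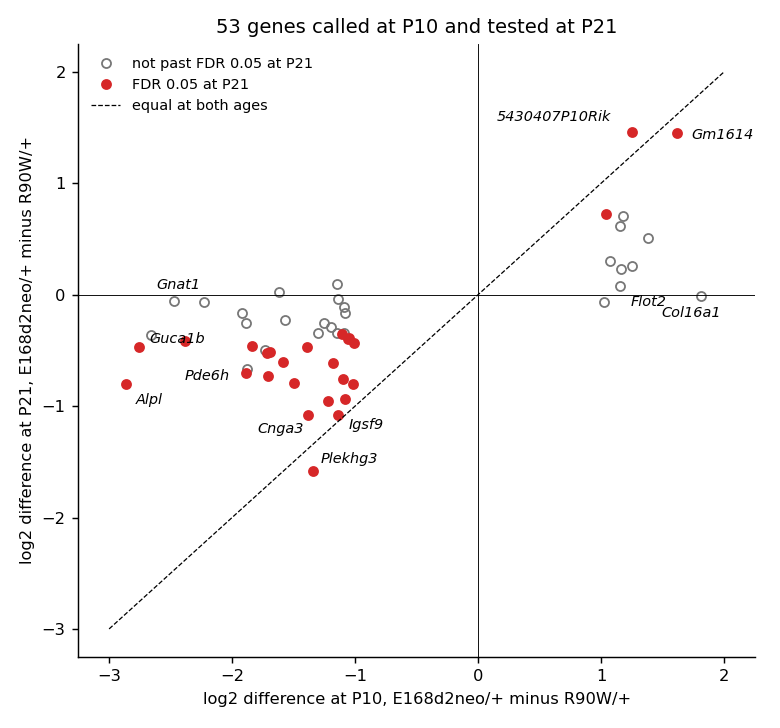
Log2 difference between E168d2neo/+ and R90W/+ at P10 (x axis) and at P21 (y axis) for the 53 called genes that were tested at both ages (points, red where the FDR at P21 was 0.05 or less). Most points lie between the dashed line of equal differences and 0, as for *Gnat1* (-2.47 and -0.06), while *Plekhg3*, *Cnga3*, *Igsf9*, *Gm1614* and *5430407P10Rik* lie near the line.

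Several rod genes with large gaps at P10 had small gaps at P21, at levels that were higher in both groups. *Gnat1* was at 10400, 10199 and 7926 CPM in *R90W/+* and at 9333, 8969 and 8828 CPM in *E168d2neo/+* at P21, which overlap (log2 -0.06, FDR = 0.849), and the difference between ages was 2.41 ± 0.259 (SE, FDR = 0.000169). *Guca1b* kept a gap past the FDR, at 952, 831 and 794 CPM against 650, 565 and 645 CPM (log2 -0.47, FDR = 0.0173). *Alpl* was at 171, 172 and 139 CPM against 93.9, 92.0 and 90.2 CPM (log2 -0.80, FDR = 0.00111), and *Kcnj14* at 344, 297 and 310 CPM against 337, 324 and 249 CPM (log2 -0.07, FDR = 0.799). Among the rises, *Col16a1* was at 6.16 to 9.49 CPM in *R90W/+* and 6.73 to 8.04 CPM in *E168d2neo/+* at P21, with no gap left (log2 -0.01, FDR = 0.985), and *Flot2* was at 49.3 to 53.3 CPM and 52.7 to 56.9 CPM (log2 0.08, FDR = 0.548).

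A few genes held their difference at both ages, and none was called in opposite directions. The 5 genes called at both ages were *Plekhg3*, *Cnga3*, *Igsf9*, *Gm1614* and *5430407P10Rik*. *Plekhg3* was at 92.9, 91.5 and 86.8 CPM in *R90W/+* and at 32.2, 28.5 and 30.2 CPM in *E168d2neo/+* at P21 (log2 -1.58 ± 0.0605 SE, FDR = 2.87e-06), after -1.34 at P10. *Cnga3* was at 16.8, 16.7 and 14.9 CPM against 7.96, 7.69 and 7.13 CPM (log2 -1.08, FDR = 0.000542) and *Igsf9*, an immunoglobulin superfamily gene, at 148, 164 and 123 CPM against 68.5, 63.6 and 71.9 CPM (log2 -1.08, FDR = 0.000649). *Opn1sw* (-0.93, FDR = 0.014), *Gnat2* (-0.72, FDR = 0.0033) and *Cngb3* (0.97, FDR = 0.000359) were at P21 close to where they had been at P10. Over the cone list the median was -0.45 at P21, with 6 of 11 genes lower past the FDR (1.12% of all genes were). Over the rod list the median was -0.15, with 4 of 21 lower.

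Some genes separated the genotypes more strongly at P21 than at P10. *Aqp1*, a water channel, was at 7.03, 8.29 and 9.03 CPM in *R90W/+* and at 4.16, 4.76 and 4.17 CPM in *E168d2neo/+* at P10 (log2 -0.88, FDR = 0.0013). At P21 it was at 49.8, 45.6 and 51.0 CPM against 5.26, 4.39 and 5.90 CPM (log2 -3.22 ± 0.11 SE, FDR = 2.66e-06), and the difference between ages was -2.34 ± 0.173 (SE, FDR = 5.61e-06). *Zan*, *Marveld3* and *Selenbp1*, too low for the test at P10, had log2 differences of -2.85, -2.91 and -2.0 at P21 and were with *Aqp1* and *Col16a1* the most negative differences between ages among genes past the FDR. *A930006I01Rik* fell just outside the level needed at P10, at 3.41, 5.77 and 6.07 CPM in *R90W/+* and 0.259 to 0.594 CPM in *E168d2neo/+*, and at P21 it had the most negative difference (-3.69, FDR = 2.66e-06). The P21 libraries carried more lens RNA, with the lens list at 14392 CPM in *R90W/+* A, 28016 CPM in *R90W/+* C and 13210 CPM in *E168d2neo/+* C, against 36.4 to 322 CPM in the other 3. Leaving these 3 libraries out leaves *R90W/+* with 1 sample, so only effect sizes are given for that fit. The median P21 difference of the lower genes tested was then -0.49.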

How the data were processed

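Whole retinas were profiled by RNA-seq of poly(A) RNA in 30 libraries, 3 for each of 10 groups, each from 4 pooled retinas. Single reads of 42 bases were mapped by the authors with TopHat2 2.0.5 (build mm9), and reads per UCSC gene came from HTSeq 0.6.1p1. The authors deposited CPM, reads scaled to each library's total, for 12573 genes. The labels also name a ribosomal depletion kit. The 32 deposited columns of the authors' own comparisons, made with edgeR 3.6.8, hold log2 fold changes, log2 mean levels, p-values and FDR values and were not used. As deposited, 20 symbols had been turned into dates. Positions came from GENCODE vM1 on mm9, which matched 12479 symbols.

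E168d2neo/+ and R90W/+ were compared with limma 3.58.1 in R 4.3.3 on log2(CPM + 0.1), with a variance trend, two-sided tests and Benjamini-Hochberg adjustment over all genes with at least 5 CPM in all 3 libraries of either group. Genes were called at an FDR of 0.05 or less and at least 2-fold. The 2 groups of an age were fitted alone, and the difference between ages was an interaction term over 4 groups, read by its FDR alone. Replicates are separate libraries of pooled retinas. On simulated data with log2 changes of 1.5, 99.5% of changed genes were recovered for P10, P21 and the difference between ages. At 5 CPM the P10 libraries of both mutants held at least 83.2 reads per gene.

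Named genes were *Crx*, members of the photoreceptor lists, the 10 largest falls and rises among called genes, up to 4 members of other lists and the 5 largest differences between ages in each direction. Other named genes were chosen after their values were seen. The members and lists were chosen with earlier results of these data known. Alternatives were other added values, filters, scalings and fits, a replicate block, and leaving out each library. Tables were made with Python 3.11.15, NumPy 2.4.6 and pandas 2.3.3, and figures with Matplotlib 3.10.9. Some genes are counted in the totals and not reported here by name.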

Additional observations from a re-analysis of the deposited data

Results flagged for a closer look

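The difference between *E168d2neo/+* and *R90W/+* was itself different at P10 and P21 (limma interaction term, FDR of 0.05 or less) for the genes listed here, with the P21 minus P10 change of the log2 difference in each case. Genes called at P10 were chosen for their gap there, which by itself favours a change toward 0. Of these, *Gnat1* (2.41), *Drd4* (2.30), *Guca1b* (2.29), *Kcnj14* (2.16), *Alpl* (2.06), *Rcvrn* (1.97), *Slc24a1* (1.76) and *Glp2r* (1.64) moved the most toward 0 among the genes that were lower at P10.

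The other called genes that were lower at P10 moved in the same direction by smaller amounts. These were *Susd3* (1.38), *AI847159* (1.34), *Gucy2f* (1.25), *Vtn* (1.23), *Gpr152* (1.21), *Cabp4* (1.20), *Pde6h* (1.19), *Gramd2* (1.18), *Fabp12* (1.0), *Gm626* (0.99), *Gm16119* (0.98), *Cpm* (0.96), *Aipl1* (0.92), *Jag1* (0.91), *Tnfaip3* (0.76), *Vax2os1* (0.75), *Rdh12* (0.66), *4632415K11Rik* (0.65) and *Osbp2* (0.58). Photoreceptor genes with less than 2-fold at P10 were *Esrrb* (0.86), *Nxnl1* (0.83), *Pde6a* (0.76), *Rdh8* (0.68), *Fam161a* (0.63), *Cplx4* (0.62) and *Lrit1* (0.55), and the glial gene *Aqp4* was at 0.84.

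Changes in the other direction were seen for called genes that were higher at P10, namely *Col16a1* (-1.82), *Slc27a2* (-1.65), *Flot2* (-1.07), *Rgnef* (-0.99), *Fbxl21* (-0.97) and *Rab3il1* (-0.94). Among genes not called at P10, *Dnahc2* (-1.06), *Jund* (-0.60), *Jun* (-0.53) and *Crx* (-0.39) changed in this direction too. *Crx* went from 0.08 at P10, where it did not differ detectably, to -0.31 at P21. *Aqp1* (-2.34) was lower at P10, and its gap was wider at P21.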

How the results depend on the processing

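The number of genes called at P10 was 60 to 92 over 15 alternatives, and 54 of the 66 genes were called under every one of them. All 66 had the same sign throughout. Leaving out 1 library gave 60 to 92 genes, while the count at the FDR alone ran from 275 without *R90W/+* replicate C, 294 without replicate B and 384 without *E168d2neo/+* replicate C to 1261 with all groups of the age in 1 fit. At P21 15 genes were called with all groups in 1 fit, 23 to 32 when 1 library was left out, and 60 without the lens-rich libraries, an alternative added after seeing the data. For the difference between ages, leaving out 1 library gave 77 to 322 genes, the highest without *R90W/+* P10 replicate A, and the lens-rich libraries left out gave 73. Without them 20 of the 42 lower and 8 of the 24 higher genes differed between ages, and the median P21 difference of the higher genes was 0.01 in place of 0.40. The amacrine list median of -0.10 ran from -0.11 to -0.03 when 1 library was left out, and the other list medians moved by less than the spread between libraries. The cause of these changes was not tested.

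Replicate letters are shared between groups, but they do not show a common origin. The deviations of same-lettered libraries at P10 correlated at 0.162, 0.213 and 0.0677 for A, B and C, and at P21 at -0.28, 0.652 and 0.485, so the letters were not taken as pairs, although each P10 library correlated best with its own letter. With the replicate block 66 genes were called at P10 (882 at the FDR alone), 28 at P21, and 210 differed between ages, and *Crx* at P21 no longer passed (FDR = 0.102), as also with limma without a trend (FDR = 0.0949). Count models on reads recovered from the CPM values were planned and not run.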
